A study of Mus musculus with 8 samples.

Results

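The genes described here encode the proteins inside the cell that build focal adhesions and signal from them, with no integrins among them. They were chosen by symbol from knowledge of the structure, with earlier results of these data known. All 38 were listed among the 23284 gene symbols of the count tables. The tables came from RNA-sequencing of ID8 IP2, a line derived from the mouse ovarian surface epithelial line ID8 of C57BL/6 origin by passage through mice. ID8 IP2 cells that also carried a luciferase and mCherry reporter were infected with pCCL lentivirus. In the Notch3IC lines the vector encoded the HA-tagged intracellular domain of Notch3 followed by an IRES and GFP, and in the Control lines it was empty. Sets 1 to 4 were separate infections, and each gave a Control line and a matched Notch3IC line, so that there were 4 libraries per group. The lines were cultured cells without other treatment. Mycoplasma was probably present in every line the whole time, which the study reports from later tests. Library totals ranged from 15524262 counts in Notch3IC of Set 2 to 28208072 counts in Control of Set 4.

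Focal adhesions are the sites where integrins that have bound extracellular matrix are joined to the actin cytoskeleton. Talins and kindlins bind the integrin tails and switch the receptors on, vinculin reinforces the link to actin, and the kinases FAK and Src with the scaffolds paxillin, Cas and Crk pass the signal on to small GTPases. Ovarian tumor cells use these structures to attach to and move over the matrix of the peritoneal wall. The comparison of Notch3IC with Control asks whether the transcripts of this machinery changed along with constant Notch3 signaling.

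The labels were checked on Notch3 and on 3 known Notch target genes. From Set 1 to Set 4, Notch3 had 38.7, 40.6, 70.8 and 42.0 normalized counts in Control, and with Notch3IC it had 4322, 467, 9220 and 5842. Its log2 ratio was 6.79, 3.51, 7.01 and 7.10 in the 4 sets, so Set 2 had the smallest increase. The targets Hey1, Heyl and Nrarp were each higher in all 4 Notch3IC libraries than in any Control library. Normalized counts here are counts scaled by edgeR's TMM library sizes to the mean library size, and a log2 ratio within a set compares its Notch3IC library with its Control library.

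The Set 1 libraries also stood apart from the others in several focal adhesion genes, in both groups. Actn1 had 18620 normalized counts in Control of Set 1 against 8804 to 9423 in the other 3 Control libraries, and Tns1 had 3075 against 931 to 1267. Tln2 had 6299 in Notch3IC of Set 1 against 1328 to 2006 in the other 3 Notch3IC libraries. For several genes the value without such a library is given beside the fitted change.

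Markers of ovarian surface and mesothelial cells were present, as the tissue label says, and their sum was lower with Notch3IC in every set. The summed level over 9 genes was 23180, 41780, 65120 and 63000 normalized counts in Control of Sets 1 to 4 and 8163, 27350, 25550 and 19700 in Notch3IC, with Upk3b the most counted. Of the 8 tested, Msln was called lower by edgeR on condition alone, at an adjusted p under 0.1 and at least a 2-fold difference. With the set as a term in the fit, Krt19 and Upk3b were called lower as well, with adjusted p-values of 0.0288 and 0.0319 against 0.124 and 0.220 without it, and DESeq2 also called both lower. Krt7, below the filter of the edgeR fit, had 4.96, 2.39, 44.0 and 5.55 in Control and 1.1, 1.5, 1.8 and 1.7 in Notch3IC. Its groups did not overlap, and DESeq2 called it lower (adjusted p = 0.0465). Lhx9 went the other way, with log2 ratios of 0.39, 0.32, 0.63 and 0.20 in Sets 1 to 4, and did not pass. Markers of mural and smooth muscle cells went the other way, with a sum of 136, 297, 52.6 and 49.2 in Control and 4124, 2048, 8244 and 10280 in Notch3IC over 5 genes. Most of that sum was Pdgfrb, which with Cspg4 was called higher. The muscle genes Myh11 and Des were at or below 39.6 in every library and below the filter of the edgeR fit. Myh11 had 0, 38.2, 0 and 0 in Control and 4.47, 39.6, 17.5 and 3.38 in Notch3IC. Des was higher with Notch3IC in 3 sets and lower in 1, and DESeq2 called neither gene. Acta2, given with the contractile genes below, was higher in every set. Rgs5, a pericyte marker below the filter of the edgeR fit, had 0.99, 2.39, 2.87 and 3.17 in Control and 20.1, 4.40, 62.5 and 50.7 in Notch3IC. Its groups did not overlap, and DESeq2 called it higher. The leukocyte markers summed to at most 122 and the endothelial markers to at most 50.3 in any library, with Ptprc listed at 0 in all but Notch3IC of Set 1. Several focal adhesion genes are also expressed in mural cells, and the part of these shifts in the results below was not tested. In RNA from a whole culture, fewer cells of a kind and less RNA per cell cannot be told apart.

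The focal adhesion genes were well expressed, with 36 of 38 tested and levels in Control from 41.7 to 4500 normalized counts per kb of exon among those 36. Flna, the widely expressed filamin that crosslinks actin and binds integrin tails, had 4500 normalized counts per kb of exon in Control. It was followed by Cav1, the main coat protein of caveolae, with 3943, and by Actn4, an actin crosslinker of the actinin family, with 2778. In Notch3IC the order at the top was Cav1 with 6449, Flna with 5072 and Actn1 with 3068. The lowest levels among tested genes were those of Tns1 with 97.8, Tln2 with 50.5, Tgfb1i1 with 44.7 and Ptk2b with 41.7 per kb in Control. These 4 were also the genes with the largest fitted increases, and they reached 250, 150, 120 and 112 per kb in Notch3IC. Fermt1, the kindlin of epithelia, had raw counts of 1, 3, 2 and 1 in Control and 1, 0, 0 and 2 in Notch3IC. Lims2, the second PINCH gene, had 2, 3, 4 and 5 in Control and 1, 3, 8 and 3 in Notch3IC. Both fell below the filter on low counts, and differences between groups were not detectable at this depth.

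**Figure D1:**
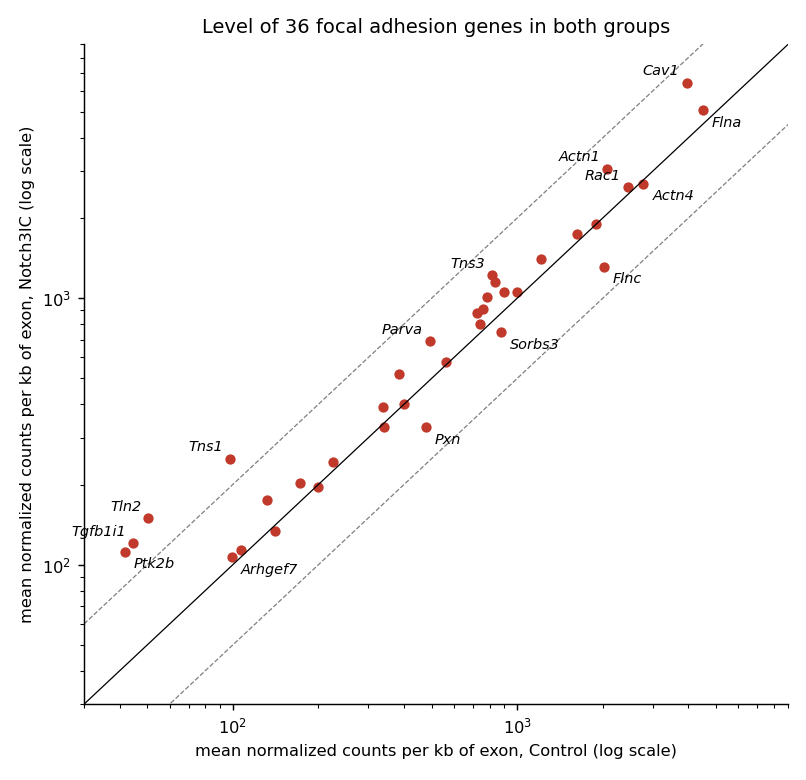
Mean normalized counts per kb of merged exon in the 4 Control libraries (horizontal axis) and the 4 Notch3IC libraries (vertical axis) for the 36 tested focal adhesion genes, both on log scales, with 1 point per gene. The solid line marks equal levels and the dashed lines a 2-fold difference. Tns1, Tln2, Tgfb1i1 and Ptk2b, all near the low end, lie above the upper dashed line, and no gene lies below the lower one.

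With Notch3IC compared to Control, none of the 36 tested genes was called higher or lower at an adjusted p under 0.1 with at least a 2-fold difference, that is a log2 fold change of 1 or more in size. Across the 12430 genes tested by edgeR's quasi-likelihood method, 3.40% were called higher and 0.740% lower by the same rule. At an unadjusted p under 0.05, 11 of the 36 (30.6%) passed, against 18.4% of all genes. Without the limit on fold change, Parva rose and Pxn fell, 1 gene each way, where 5.0% of all genes were called higher and 1.69% lower. The median log2 fold change of the 36 genes was 0.19, against -0.01 over all genes, with 28 values above 0 and 8 below. Changes were small for most of the list, and 22 of 36 (61.1%) had a fitted log2 fold change under 0.3 in size, as did 67.8% of all genes.

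Because each set was a matched pair, the fit was repeated with the set as a term. Tgfb1i1, Tln2 and Tns1 were then called higher and none was called lower, against 5.19% and 2.53% of all genes. DESeq2 without sets called the same 3 genes higher and none lower, where it called 5.05% of genes higher. With no limit on fold change, DESeq2 called 7 of the list higher and 2 lower, and 1171 and 627 of all genes. Without the fold limit, the fit with sets called 13 of 36 genes higher, against 14.9% of all genes, and 2 lower, against 12.1%. The 13 were Actn1, Bcar1, Cav1, Enah, Fermt2, Ilk, Lpp, Parva, Parvb, Tgfb1i1, Tln2, Tns1 and Tns3, and the 2 were Flnc and Pxn. With sets as a term and Set 1, 3 or 4 left out, none was called by the rule with the fold limit, without that limit Pxn alone passed, with Set 4 left out, and the number of genes called higher in the whole table dropped to 46, 59 and 129 in turn. With Set 2 left out, Ptk2b joined Tgfb1i1, Tln2 and Tns1 as called higher, where 904 of the 12430 genes were called higher. Without the fold limit that fit called 20 of the 36 genes higher and 2 lower, and 2918 and 2725 of all genes.

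**Figure D2:**
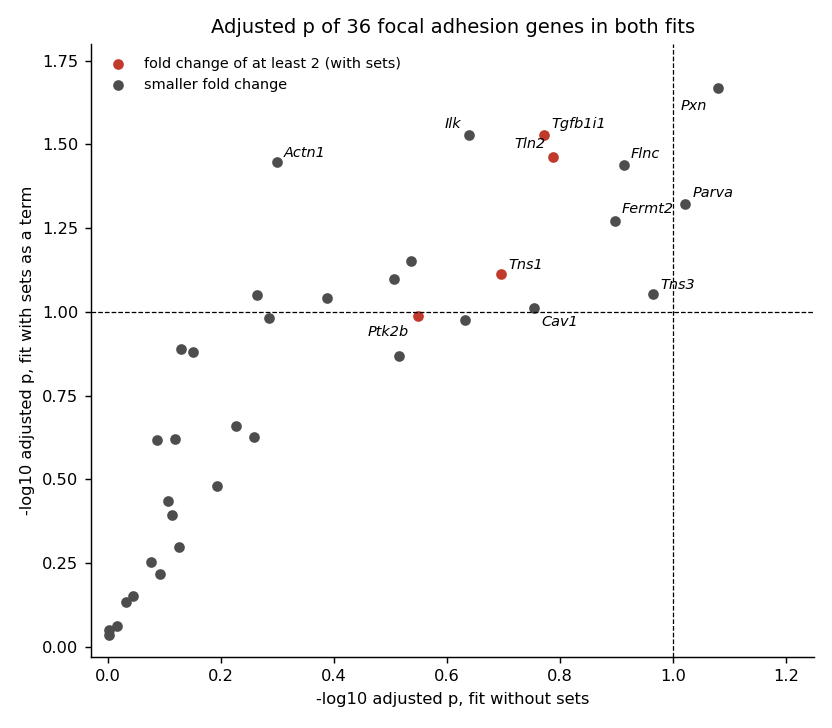
Adjusted p on a -log10 scale for the 36 tested focal adhesion genes, from the edgeR fit on condition alone (horizontal axis) and from the fit with the set as a term (vertical axis), with 1 point per gene. Dashed lines mark an adjusted p of 0.1, and red points are genes with a fold change of at least 2 in the fit with sets. Parva and Pxn lie to the right of the vertical line, 15 genes lie above the horizontal line, and Ptk2b lies just under it.

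The direction within sets was more uniform than these calls. Of the 36 genes, 19 (52.8%) were higher in Notch3IC in all 4 sets, against 21.0% of all genes tested, and 2 (5.56%) were lower in all 4, against 19.4%. In 4 genes (11.1%), Cav1, Fermt2, Parva and Tns3, each Notch3IC library was above each Control library, against 7.08% of all genes. In Flnc and Pxn (5.56%) each Notch3IC library was below each Control library, against 3.75%. The genes of the list share libraries and are not independent of each other, so these shares describe the 8 libraries.

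**Figure D3:**
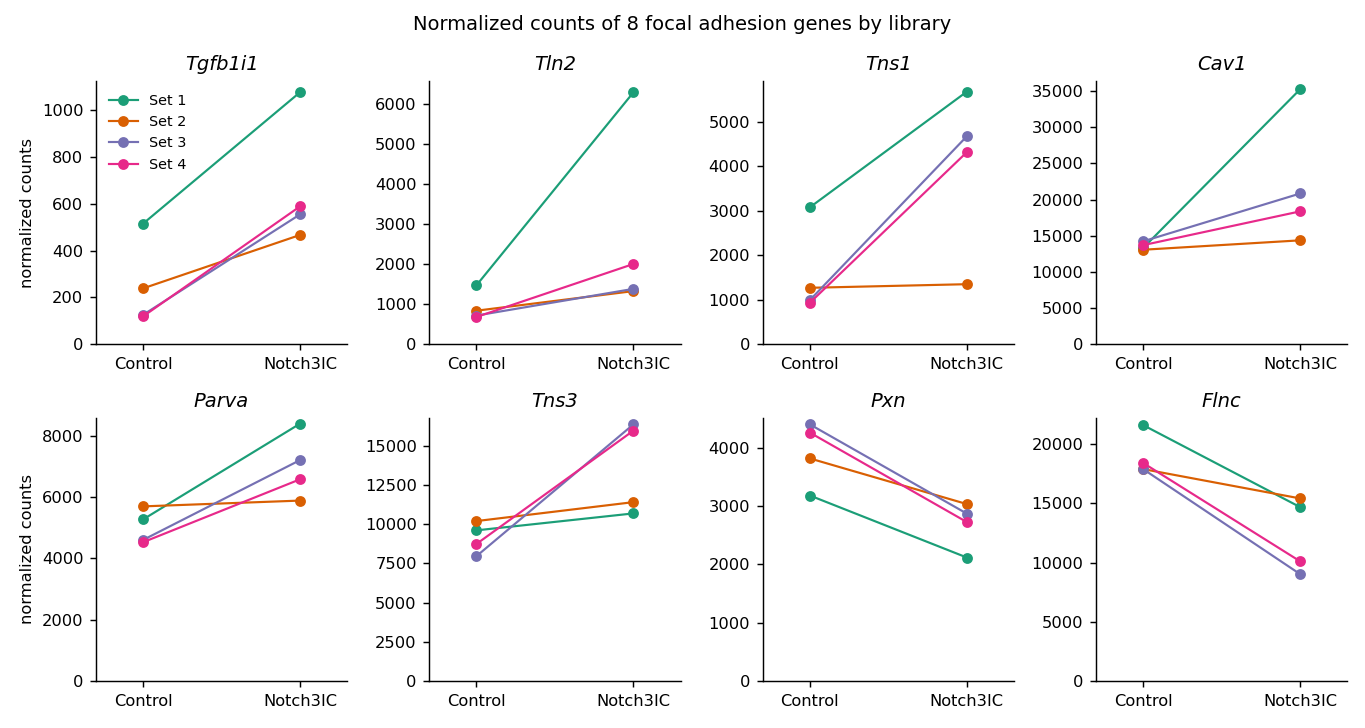
Normalized counts (vertical axes, each from 0) of 8 focal adhesion genes in the Control and the Notch3IC library of each set, with a line joining the 2 libraries of a set. Tgfb1i1, Tln2 and Tns1 rise in every set from different Control levels, Cav1, Parva and Tns3 are higher in all Notch3IC libraries, and Pxn and Flnc are lower in all of them. Set 2 has the flattest line in Tgfb1i1, Tln2, Tns1, Cav1, Parva, Pxn and Flnc.

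Among the talins, vinculin, the kindlins and their regulator, talin 2 had the largest fitted change in the fit on condition alone. Tln2, the second talin gene, had 1473, 838, 717 and 681 normalized counts in Control of Sets 1 to 4 and 6299, 1328, 1384 and 2006 in Notch3IC. It was higher within every set, with log2 ratios of 2.10, 0.66, 0.95 and 1.56, but the groups overlapped because Control of Set 1 exceeded 2 Notch3IC libraries. The means were 927 ± 370 and 2754 ± 2383 (SD, n = 4), a log2 fold change of 1.57 ± 0.54 (SE) with an adjusted p of 0.163, and of 1.33 ± 0.25 with an adjusted p of 0.0344 with sets. Without Notch3IC of Set 1 the fitted change dropped to 0.77. Tln2 lies at chr9:67217087-67559703 on GRCm38.

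Kindlin 2, the partner of talin in integrin activation, moved less and more evenly. Fermt2 had 4115, 4055, 4059 and 4019 in Control and 5241, 4405, 6381 and 5042 in Notch3IC, so all 4 Notch3IC libraries were above the tight Control group. The log2 fold change was 0.38 ± 0.12, with an adjusted p of 0.127 without and 0.0534 with sets. Tln1, the main talin, had a log2 fold change of 0.21 and a range of 9680 to 20010 over the 8 libraries, and Vcl, which encodes vinculin, had 0.08. Itgb1bp1, which encodes a protein that competes with talin for the integrin tail, had -0.08. Vcl shares 25.5% of its exon bases with Ap3m1, and Itgb1bp1 shares 16.9% with its neighbours, all on the opposite strand. Since the strand setting of the counting is not given in the sources used here, reads of such pairs cannot be told apart.

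The ILK, PINCH and parvin complex, which joins the tails to actin through the pseudokinase ILK, had small positive differences in every gene tested. All 4 tested genes were higher in Notch3IC, with log2 fold changes from 0.23 to 0.48 and a median of 0.45. Parva, the gene of alpha-parvin (chr7:112427505-112591692), had 5264, 5690, 4595 and 4521 normalized counts in Control and 8387, 5879, 7199 and 6573 in Notch3IC. The groups did not overlap, though Notch3IC of Set 2 exceeded its own Control by a log2 ratio of just 0.05. The means of the groups were 5018 ± 559 and 7009 ± 1065, and the log2 fold change of 0.48 ± 0.13 had an adjusted p of 0.0952 without sets and 0.0477 with them. Leaving out single libraries or sets moved the first of these adjusted p-values between 0.0366 and 0.546. Ilk had a log2 fold change of 0.47 (adjusted p = 0.230 without sets, 0.0297 with them), Parvb had 0.43 (0.312 and 0.0799), or 0.25 without Notch3IC of Set 1, and Lims1, the PINCH gene expressed here, had 0.23 (0.234 and 0.106). As 89.7% of the exon bases of Ilk lie opposite Rrp8 and Taf10, its counts are uncertain.

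The scaffolds around FAK and Src held changes in both directions, and the paxillin family genes of the list, Pxn and Tgfb1i1, differed in direction. Their relative Lpxn, outside the list, had a log2 fold change of 0.06 at 3.97 to 17.5 normalized counts. Pxn encodes paxillin, the scaffold that recruits FAK, the GIT proteins and vinculin, and lies at chr5:115506676-115555987. It had 3180, 3816, 4400 and 4259 normalized counts in Control and 2116, 3033, 2869 and 2724 in Notch3IC. Each Notch3IC library was below each Control library, and log2 ratios within sets were -0.59, -0.33, -0.62 and -0.64. Pxn fell by 0.54 ± 0.14 on the log2 scale (SE), with an adjusted p of 0.0833 without sets and 0.0215 with them, a fold change below the limit of 2. Leaving out single libraries or sets moved the adjusted p without sets between 0.0503 and 0.563.

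Tgfb1i1 encodes Hic-5, a paxillin relative with LIM domains that is induced by TGF-beta and is abundant in smooth muscle, and lies at chr7:128246812-128255699. It had 516, 239, 125 and 119 normalized counts in Control and 1078, 467, 555 and 590 in Notch3IC. Within sets it was higher by log2 ratios of 1.06, 0.97, 2.14 and 2.31, while across sets Control of Set 1 lay above Notch3IC of Set 2. The means of 250 ± 186 and 673 ± 275 gave a log2 fold change of 1.43 ± 0.50 with an adjusted p of 0.169, and with sets it was 1.61 ± 0.27 with an adjusted p of 0.0297. Of the 3 genes called with sets, it had the lowest adjusted p in that fit and was the one with a ratio near or above 2-fold in all 4 sets. Leaving out a library or set moved the fitted change without sets between 1.12 and 2.07. At 44.7 normalized counts per kb in Control, it lay well below Pxn, at 478.

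The 2 kinases of the FAK family differed in level and in fitted change. Ptk2, the gene of FAK, had a log2 fold change of 0.22 (adjusted p = 0.518 without sets, 0.104 with them), or 0.089 without Notch3IC of Set 1, and 336 normalized counts per kb in Control. Ptk2b, the gene of the calcium-responsive relative PYK2, was named after its values were seen. It had 243, 179, 517 and 294 normalized counts in Control and 1028, 125, 1498 and 664 in Notch3IC. It was higher with Notch3IC in Sets 1, 3 and 4, by log2 ratios of 2.08, 1.53 and 1.17, but lower in Set 2, with a log2 ratio of -0.52. The log2 fold change of 1.43 ± 0.64 had an adjusted p of 0.283 without sets and 0.103 with them. Without Notch3IC of Set 2 it was called higher.

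Src, the kinase that partners with FAK, had 2156, 1670, 1741 and 1436 normalized counts in Control and 1921, 1559, 1957 and 1585 in Notch3IC and a log2 fold change of 0.00 ± 0.14. Bcar1, which encodes the Src substrate Cas, was higher within all 4 sets, with a log2 fold change of 0.27 and adjusted p-values of 0.545 without and 0.0889 with sets, and it was 0.088 without Notch3IC of Set 1. Its relative Nedd9 had -0.02. The adaptors Crk and Crkl, which couple phosphorylated Cas and paxillin to exchange factors, had 0.11 and -0.05.

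The module that controls Rac and PAK at adhesions, as listed here, was the flattest of the 8 role groups. Git1 and Git2 encode scaffolds that bind paxillin, Arhgef7 encodes the exchange factor beta-PIX, and Pak1 encodes a kinase activated by Rac. With the GTPases Rac1 and Rhoa, these 6 genes had log2 fold changes from 0.03 to 0.12, and none passed in either fit at any fold limit. Relatives of these genes outside the list were not all flat. Rac3 and Arhgef6 had log2 fold changes of 2.02 and 1.61 at low counts, and Pak2, Pak3 and Pak4 had -0.04, -0.18 and -0.21. Pak1, with 0.12, ranged from 0.040 to 0.25 with a library or set left out. Rac1 was among the most abundant genes per length, with 2462 normalized counts per kb in Control, though 51.4% of its exon bases lie opposite Daglb.

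The actin crosslinkers were among the most abundant genes and were divided by gene. Flnc encodes filamin C, the filamin enriched in muscle, and lies at chr6:29433256-29461883. It had 21600, 17890, 17880 and 18400 normalized counts in Control and 14670, 15410, 9007 and 10090 in Notch3IC, with no overlap between groups. The means were 18940 ± 1788 and 12300 ± 3216, and the log2 fold change of -0.62 ± 0.19 had an adjusted p of 0.122 without sets and 0.0365 with them. The ratio within sets was largest in Sets 3 and 4, at -0.99 and -0.87, and smallest in Set 2, at -0.21. Flna, by contrast, was higher within all 4 sets but with ratios of no more than 0.26, and its log2 fold change was 0.17 (adjusted p = 0.742 without sets, 0.129 with them).

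Actn1, which encodes the alpha-actinin of stress fibers and adhesions, had 18620, 9129, 8804 and 9423 normalized counts in Control and 30820, 10460, 14040 and 12570 in Notch3IC. It was higher within each set, by log2 ratios of 0.73, 0.20, 0.67 and 0.42, but Control of Set 1 was above 3 of the 4 Notch3IC libraries. Its log2 fold change of 0.56 ± 0.39 had an adjusted p of 0.502 without sets, and of 0.0357 with them. The fitted change was 0.11 without Notch3IC of Set 1 and 0.90 without Control of Set 1. Actn4 had a log2 fold change of -0.04 and ranged from 14990 to 20420 over the 8 libraries.

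Tensins tie integrin tails to actin in mature fibrillar adhesions, and Tns1 and Tns3, those of this list, were both higher in every set. Tns2, examined with the other focal adhesion genes below, was lower in Set 2, with a log2 ratio of -0.14. Its log2 fold change was 0.23, with an adjusted p of 0.701 in the edgeR fit without sets. Tns1 had 3075, 1267, 991 and 931 normalized counts in Control and 5674, 1348, 4672 and 4315 in Notch3IC. The ratio within sets was uneven, with log2 values of 0.88, 0.09, 2.24 and 2.21, and Notch3IC of Set 2 lay among the Control libraries. The means of 1566 ± 1017 and 4002 ± 1861 gave a log2 fold change of 1.36 ± 0.51 with an adjusted p of 0.201, and with sets it was 1.37 ± 0.40 with an adjusted p of 0.0772. The fit without sets gave 1.10 without Set 3 and 1.91 without Control of Set 1. Tns3 had 9617, 10210, 7968 and 8746 in Control and 10700, 11420, 16390 and 15990 in Notch3IC, so the groups did not overlap. Here Sets 3 and 4 had log2 ratios of 1.04 and 0.87 and Sets 1 and 2 had 0.15 and 0.16. The log2 fold change of 0.58 ± 0.17 had an adjusted p of 0.109 without sets and 0.0886 with them. Tns1 lies at chr1:73910231-74124449 and Tns3 at chr11:8431652-8664535.

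Cav1, which links caveolae to Src and to integrin signaling, was even in Control and spread out in Notch3IC. It had 13330, 13060, 14230 and 13700 normalized counts in Control and 35270, 14360, 20840 and 18370 in Notch3IC, and every Notch3IC library was above every Control library. The means were 13580 ± 505 and 22210 ± 9106. The log2 fold change of 0.71 ± 0.25 had an adjusted p of 0.176 without sets and 0.0971 with them, and it dropped to 0.38 without Set 1. Sorbs3, the gene of the vinculin partner vinexin, had a log2 fold change of -0.24, with 1385 normalized counts in Control of Set 1 against 3440 to 4151 in the other Control libraries. Its fitted change was -0.49 without Control of Set 1 and -0.074 without Notch3IC of Set 1.

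Zyxin and the Ena/VASP proteins promote actin assembly at adhesions that are under tension. Lpp, a zyxin relative, had a log2 fold change of 0.41 (adjusted p = 0.290 without sets, 0.0706 with them), or 0.21 without Notch3IC of Set 1. Enah, the gene of the actin elongation factor Mena, had 0.24 (0.409 and 0.0907), or 0.15 without that library, and its relative Vasp had 0.28 (0.305 and 0.135), or 0.16 without Notch3IC of Set 3. These 3 genes were higher in Notch3IC in all 4 sets. Zyx itself had a log2 fold change of -0.01 and ranged from 7652 to 15460 normalized counts over the 8 libraries, with the highest value in Control of Set 1.

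**Figure D4:**
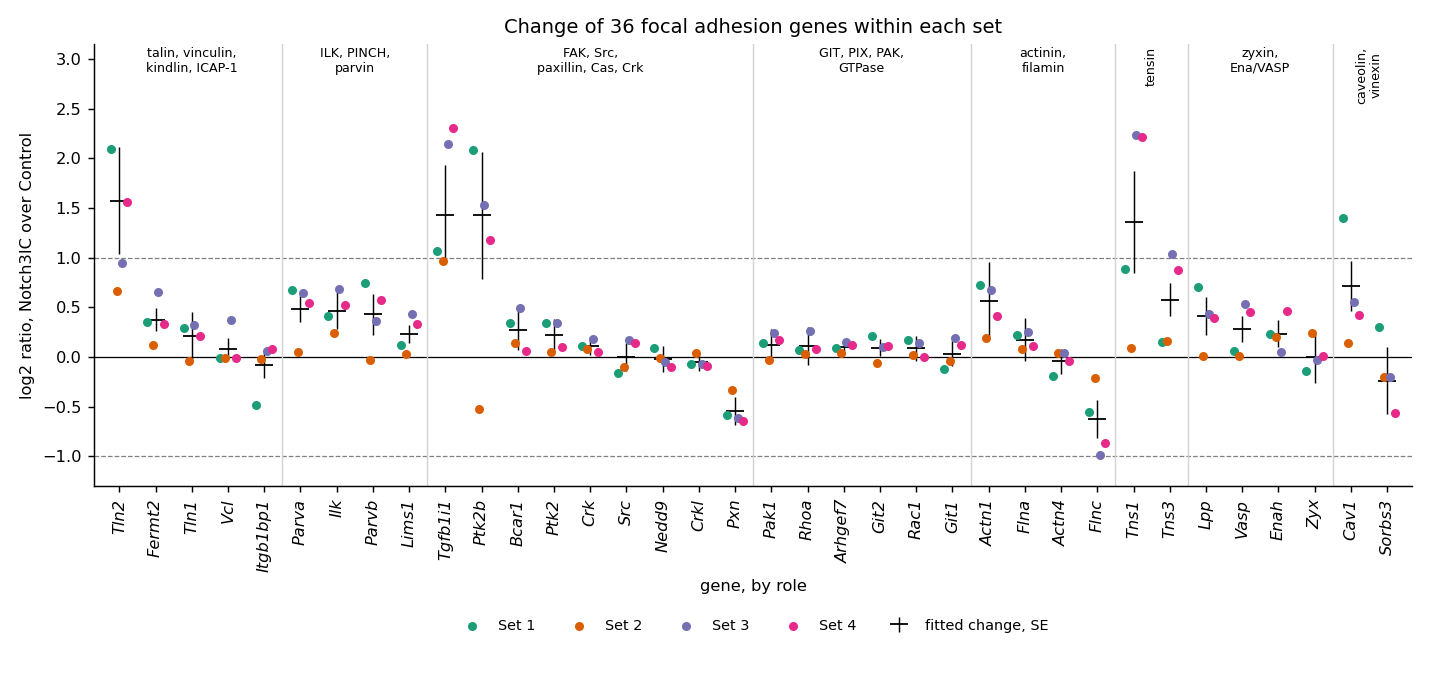
Log2 ratio of Notch3IC over Control (vertical axis) within each set, as colored points, for the 36 tested focal adhesion genes grouped by role (horizontal axis), with the fitted log2 fold change over all libraries as a black bar and its SE as a line. Dashed lines mark a 2-fold difference. The 6 genes of the GIT, PIX, PAK and GTPase group stay close to 0 in every set, while Tln2, Tgfb1i1, Ptk2b and Tns1 reach ratios above 2 in at least 1 set.

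The size of the differences varied by set, and Set 2 had the smallest. The median log2 ratio of the 36 genes was 0.19, 0.04, 0.29 and 0.13 in Sets 1 to 4. In Set 2, 3 of the 36 genes (8.33%) had a log2 ratio over 0.5 in size, namely Tgfb1i1, Tln2 and Ptk2b, against 11.4% of all genes tested. In the other sets the count was 11, 13 and 11 genes (30.6%, 36.1% and 30.6%), against 26.4%, 26.5% and 27.3% of all genes. Set 2 also had the lowest Notch3 in its Notch3IC library, and the part of this in the smaller ratios was not tested. Which sets moved a gene most differed between genes, with Set 1 first for Tln2, Ptk2b and Cav1 and Sets 3 and 4 first for Tgfb1i1, Tns1, Tns3 and Flnc.

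**Figure D5:**
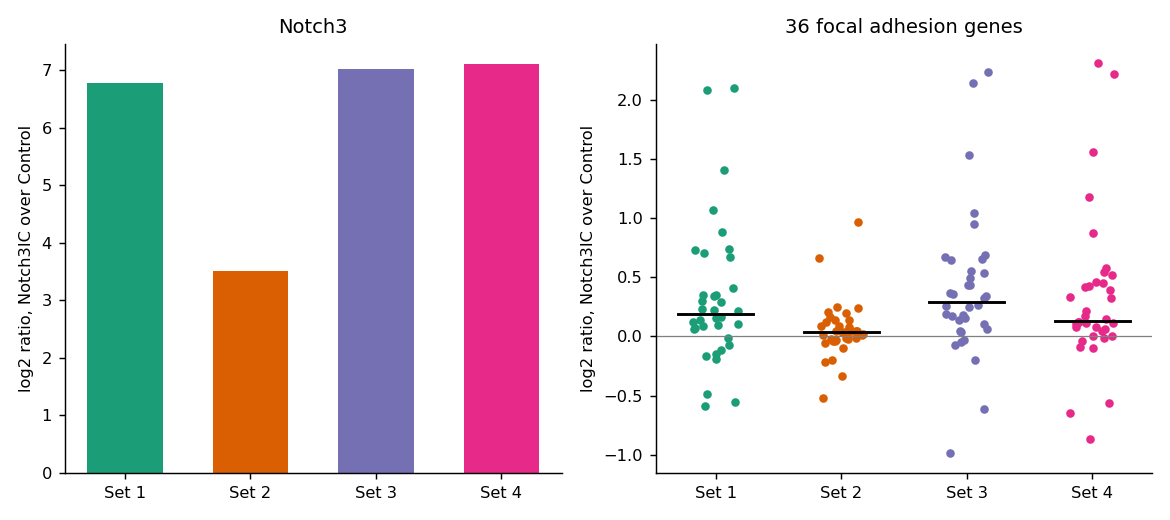
Left, the log2 ratio of Notch3 in the Notch3IC over the Control library of each set, as bars from 0. Right, the log2 ratios of the 36 tested focal adhesion genes in the same sets, with 1 point per gene and a line at the median. Set 2 has the smallest Notch3 ratio (3.51) and the narrowest spread of focal adhesion genes around a median of 0.04.

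Promoter sequence is shown for Tns1, the one gene called with sets that has an entry in the promoter table, and for Cav1, the most abundant gene whose groups did not overlap upward. Notch intracellular domains act through the DNA-binding protein RBPJ, and TGGGAA is the core of the site RBPJ binds. The letters were searched on both strands in windows from 250 bases before to 50 bases after each RefSeq gene start on GRCm38.p6. They occur in 25.6% of all 32851 windows, in 10 of the 29 focal adhesion genes with a window, and in 31.0% of the 42 windows of those genes. Tns1 (chr1:74124499-74124798, - strand) has 1 copy, as TTCCCA on the strand shown, and Cav1 (chr6:17306085-17306384, + strand) has 1 copy in 1 of its 2 windows. The other 8 genes with a copy were Actn1, Actn4, Arhgef7, Bcar1, Fermt1, Git2, Lpp and Vcl, with log2 fold changes from -0.04 to 0.56 in the 7 that were tested, and neither window of Flnc held it. Each sequence runs 5′ to 3′ on the strand of the gene, with the matching letters in capitals. A match is a description of the letters and not evidence of binding.
Tns1: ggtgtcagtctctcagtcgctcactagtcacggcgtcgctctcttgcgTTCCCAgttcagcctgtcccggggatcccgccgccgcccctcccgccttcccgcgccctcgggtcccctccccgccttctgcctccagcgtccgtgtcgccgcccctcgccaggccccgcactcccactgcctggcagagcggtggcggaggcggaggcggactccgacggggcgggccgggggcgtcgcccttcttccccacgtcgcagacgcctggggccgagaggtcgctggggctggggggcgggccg
Cav1: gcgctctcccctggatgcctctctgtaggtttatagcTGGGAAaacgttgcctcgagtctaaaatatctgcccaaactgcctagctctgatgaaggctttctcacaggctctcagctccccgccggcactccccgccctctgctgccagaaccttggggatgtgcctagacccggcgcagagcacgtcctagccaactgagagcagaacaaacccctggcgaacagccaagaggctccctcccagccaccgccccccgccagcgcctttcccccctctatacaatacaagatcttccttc

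To place these genes in the wider structure, 59 more focal adhesion genes were examined, and 56 of them were tested. By the main rule 2 were called higher and none lower (3.57% of 56, against 3.40% of all genes for higher). Efs, which encodes another member of the Cas family of Src substrates, had 63.5, 22.7, 73.7 and 46.8 normalized counts in Control and 612, 122, 1300 and 789 in Notch3IC. Every Notch3IC library was above every Control library, and Efs rose by a log2 fold change of 3.76 ± 0.68 (adjusted p = 0.0298), while its relatives Bcar1 and Nedd9 had 0.27 and -0.02. Rac3, a close relative of Rac1, had 7.93, 17.9, 8.61 and 11.9 in Control and 48.1, 35.2, 44.1 and 60.0 in Notch3IC, and rose by 2.02 ± 0.33 (adjusted p = 0.0248). Its counts were low, and reads shared with Rac1 and other near-identical GTPases could be split by the authors' counting. With a library or set left out, the adjusted p ranged from 0.00159 to 0.322 for Efs and from 0.00796 to 0.301 for Rac3, and both calls ended without Control of Set 3, Control of Set 4, Set 3 or Set 4. Without the fold limit, Csrp1, Dock1, Elmo2, Evl, Sorbs2 and Svil also rose, by log2 fold changes between 0.33 and 1.00, which made 8 of 56 (14.3%) against 5.0% of all genes. That count dropped to 1 without Control of Set 3 or of Set 4, where 78 and 109 of all genes were called higher. It was 4 without Notch3IC of Set 3 or of Set 4 (229 and 172 of all genes), and 0 without Set 3 or Set 4 (1 and 0). It rose to 13 without Control of Set 1 (692 of all genes) and 15 without Notch3IC of Set 2 (1265). Without Set 1 or Set 2 it was 12 (593 and 1081). Of the genes added without the fold limit, Sorbs2 had the largest fitted change, at 1.00, and Svil the next, at 0.79. Sorbs2 is a relative of Sorbs3 that binds vinculin, and Svil encodes the actin-binding protein supervillin. With sets as a term, Arhgef6 and Fhl2 were called higher as well, 4 of 56 (7.14%) in all, against 5.19% of all genes. DESeq2 without sets called the same 4 higher, against 5.05% of all genes. The fit with sets and no fold limit called 21 of the 56 (37.5%) higher, against 14.9% of all genes, and 6 (10.7%) lower, against 12.1%. With Set 1, 3 or 4 left out of that fit, the 21 dropped to 2, 2 and 5 and the 6 to 1, 0 and 1. Over all genes the same fits called 49, 60 and 159 higher and 35, 27 and 67 lower. The 4 called with the fold limit dropped to 2 each time, where 46, 59 and 129 of all genes were called higher. With Set 2 left out, 26 of the 56 were called higher and 10 lower without the fold limit, against 2918 and 2725 of all genes. With the limit 6 were called higher and 1 lower, against 904 and 426.

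Contractile genes that act on adhesions from the actin side were examined as another list, with 37 of 38 tested. None was called higher or lower by edgeR's quasi-likelihood test, and 6 (16.2%) had an unadjusted p under 0.05 against 18.4% of all genes. DESeq2 called none of the 36 it tested, and it gave no p-value for Tagln. With no limit on fold change, DESeq2 called 4 higher and 1 lower, and 1171 and 627 of all genes. Without the fold limit Ect2, a guanine nucleotide exchange factor needed for cell division, fell by 0.42 on the log2 scale (adjusted p = 0.0926). It was the 1 gene called lower (2.70% of 37), against 1.69% of all genes. That call ended with no filter on low counts, without Control of Set 1, 3 or 4, and without Notch3IC of Set 3 or 4. It also ended without Set 3 or Set 4. With sets as a term Acta2, Cnn1, Mylk and Tagln, all of them genes of the smooth muscle contractile apparatus, were called higher, 4 of 37 (10.8%) against 5.19% of all genes. Myl9, the myosin regulatory light chain of smooth muscle, had a log2 fold change of -0.20 in that fit and did not pass. None of the list was called with Set 1, 3 or 4 left out of that fit, where 46, 59 and 129 of all genes were called higher. With Set 2 left out 4 were called higher, against 904 of all genes. Acta2, the actin of smooth muscle and myofibroblasts, had 33460, 11000, 6986 and 2853 normalized counts in Control and 73810, 17090, 22560 and 14480 in Notch3IC. It was higher in every set, but the Control libraries alone differed by up to 11.7-fold, and its adjusted p was 0.462 without sets and 0.0362 with them. Tagln shares 67.9% of its exon bases with Pcsk7 and another gene on the opposite strand. Without the fold limit, the fit with sets called 15 of the 37 (40.5%) higher against 14.9% of all genes, among them Myh9, the main non-muscle myosin heavy chain, with a log2 fold change of 0.68 (adjusted p = 0.0380), and it called Diaph1 and Ect2 (5.41%) lower, against 12.1%. With Set 1, 3 or 4 left out, that count of 15 dropped to 0, 0 and 1, where 49, 60 and 159 of all genes were called higher. With Set 2 left out it was 16, where 2918 of all genes were called higher.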

How the data were processed

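Polyadenylated RNA of the 8 lines was sequenced as single-end reads from TruSeq libraries. Per the labels and the paper, the authors aligned reads with TopHat, counted them with Cufflinks and compared groups with DESeq. The submitters' processing notes name the build mm9. Tool versions, the annotation and the strand setting are not given in the sources used here. The authors deposited 1 table of whole-number counts per gene symbol and library, without normalization, and no column was left unused. Totals were 15524262 to 28208072 counts. A gene with few counts has little precision, and intervals were not computed.

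Groups and sets came from the sample titles. Notch3IC was compared with Control by edgeR 4.0.16 (TMM, filterByExpr by condition, robust quasi-likelihood F test) in R 4.3.3, with condition as the one term, since the study names no set term. Genes were called by the study's thresholds, a p below 0.1 after Benjamini-Hochberg adjustment across all 12430 genes in the fit together with a log2 difference of 1 or more in either direction. Log2 ratios within sets were computed with a pseudocount of 0.5. The SE of an edgeR log2 fold change was derived from the test, as the size of the change over the square root of F. The p-values measure the spread between separately infected lines of 1 cell line.

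The labels and the study's design make each set a matched pair of lines. Across genes, the departure of a set's Control library from the Control mean correlated with that of its Notch3IC library, with r of 0.80 in Set 1, 0.40 in Set 2, 0.57 in Set 3 and 0.41 in Set 4, and between -0.50 and 0.37 for crossed pairs. The fit with sets is given beside the results whose calls it changes.

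Alternatives were DESeq2 1.42.0, RLE factors, no filter on low counts, at least 10 counts in every library, sets as a term, an adjusted p under 0.05, no fold limit, and each library or set left out. The fit with sets and no fold limit, and with each set left out, was chosen after seeing the data. Scripts were tested on simulated data. The genes and lists, and the tests on them, were chosen with earlier results of these data known. Full values are given for genes called in any of the 3 fits (edgeR with and without sets, DESeq2) or with groups that did not overlap. The 3 genes highest per length are named, low genes are given by counts, and called genes of the other lists are named, up to 8 in each direction. Of the surface markers, Muc16 was not matched. Exon lengths and overlaps are from GENCODE M21 on GRCm38, and so are gene positions, which were not converted from the build of the counts. Promoter windows are from RefSeq on GRCm38.p6.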

Additional observations from a re-analysis of the deposited data

Results flagged for a closer look

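Single libraries lay far from the other 3 of their group in 8 of 74 groups examined, where chance alone flags about 1 in 20, or 3.7. Of the 8, 7 were in Set 1. In Control of Set 1, Ilk had 3009 normalized counts against 2042 to 2053 in the others, Rhoa had 7374 against 4842 to 5116, and Actn1 had 18620 against 8804 to 9423. In the same library Flnc had 21600 against 17880 to 18400 and Tns1 had 3075 against 931 to 1267. In Notch3IC of Set 1, Tln2 had 6299 against 1328 to 2006 and Flna had 66120 against 39860 to 42410. The remaining case was Itgb1bp1 in Control of Set 3, with 467 against 506 to 513 in the others.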

How the results depend on the processing

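Of the 38 focal adhesion genes, none was called higher or lower by the main rule, and this also held with RLE factors, with no filter on low counts, with at least 10 counts in every library and at an adjusted p under 0.05. DESeq2 called 3 higher, sets as a replicate block called 3, and the range with a library or set left out was 0 to 3. Without the fold limit 1 was called higher and 1 lower, and the block without the fold limit gave 13 and 2. The block with Set 2 left out called 4 higher. Over all genes the main counts were 423 higher and 92 lower. DESeq2 gave 708 and 192, the block 645 and 315, and the block without the fold limit 1858 and 1509. The block gave 46 and 23 without Set 1, 904 and 426 without Set 2, 59 and 22 without Set 3, and 129 and 30 without Set 4. An adjusted p under 0.05 gave 48 lower, and no fold limit gave 210 lower. Leaving out a library or set gave 0 to 702 higher and 0 to 305 lower, with 75 and 8 without Control of Set 3, 99 and 11 without Control of Set 4, and at most 1 without Set 3 or Set 4. These fits had fewer samples.

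Of 797 log2 fold changes of single genes under the alternatives, 46 changed sign, all of them within 0.22 of 0 in the fit on condition alone and none of them called. With a library or set left out, Tln1 ranged from -0.018 to 0.40, Vcl from -0.011 to 0.14, Itgb1bp1 from -0.14 to 0.034, Src from -0.082 to 0.12, Nedd9 from -0.096 to 0.065 and Crkl from -0.096 to 0.0098. Git1 ranged from -0.020 to 0.14, Rac1 from -0.0059 to 0.15, Rhoa from -0.028 to 0.28, Actn4 from -0.090 to 0.054, Flna from -0.020 to 0.35 and Zyx from -0.19 to 0.26. Src was -0.015 with DESeq2 and -0.012 with RLE factors. With the block, Zyx was 0.017. With the block and Set 1 left out, Itgb1bp1 was 0.035, Actn4 was 0.0087 and Zyx was 0.067. Without Set 3 it gave -0.011 for Vcl, -0.041 for Src, -0.014 for Git1 and 0.034 for Zyx. Without Set 4 it gave -0.028 for Src, 0.014 for Nedd9 and 0.025 for Zyx. The cause of these changes was not tested. Where the block changed a call of a gene in these lists, its value or count stands here or in the results. Depth limits Fermt1 and Lims2 among the 38 genes, and Parvg, Actn2, Rac2, Rac3 and Myh14 in the other lists.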
